A study of Mus musculus with 6 samples.

Results

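The glycolysis, pentose phosphate and hypoxia genes are 36 genes for glucose uptake, the steps from glucose to pyruvate and lactate, the entry of pyruvate into mitochondria, the pentose phosphate pathway and the oxygen-sensing pathway of HIF-1. They were chosen by symbol and matched to the Ensembl identifiers of the deposited count tables, which hold 53379 genes. All 36 were found and all 36 passed the filter on low counts. RNA was sequenced from regulatory T cells (Tregs, the CD4 T cells that express FOXP3 and restrain immune responses) sorted from C57BL/6 mice aged 3 months. The KO group was Foxp3YFP-CrexJunbFlox/Flox, in which Cre made under Foxp3 acts on floxed Junb, and had 3 libraries. The WT group was Foxp3YFP-CrexJunb+/+, which carries the same Cre allele with unaltered Junb, and also had 3 libraries. JunB, the protein, pairs with FOS proteins to form AP-1, and the study asked what its loss does to Tregs. How the sort was gated is not given, and whether the replicates are separate mice is not stated either, so that p-values reflect a spread between libraries that may be technical.

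Glycolysis splits glucose into pyruvate and yields ATP without oxygen. T cells raise it when they are activated, and much of the pyruvate then leaves the cell as lactate. The pentose phosphate pathway branches off after the first phosphorylation and supplies NADPH and ribose for nucleotides. HIF-1 is a dimer of the oxygen-labile HIF-1α (Hif1a) and ARNT. Prolyl hydroxylases (Egln1, Egln3) mark HIF-1α in the presence of oxygen, the von Hippel-Lindau protein (Vhl) then directs its destruction, and many glycolysis genes as well as Bnip3 and Egln3 are known targets of HIF-1. In T cells HIF-1 favours glycolysis and Th17 differentiation over Treg differentiation.

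HIF-1 binds the core letters ACGTG or GCGTG. The 250 bases upstream of the annotated start (RefSeq, GRCm38.p6) were therefore searched for both cores, for the E-box CACGTG that MYC binds, which holds ACGTG on each strand, and for the AP-1 element TGANTCA, each on both strands. Of the 36 members 35 had a promoter in the RefSeq table. Either HIF core was present in 29 of 35 (82.9%), against 38.6% of 32851 promoters of all genes. For members with several promoters only the one nearest the start of the annotated gene was used. The 32851 include every promoter of a gene. ACGTG, with or without GCGTG, was found in 40.0% of member promoters, against 16.6% of all promoters. GCGTG, with or without ACGTG, was found in 60.0% of member promoters, against 28.2% of all promoters. CACGTG was in 14.3% of member promoters, against 6.02% of all promoters. The AP-1 letters were in 0 of 35 of these windows, against 6.75% of all promoters. The member promoters held a median of 16 CpG dinucleotides, against a median of 6 in all promoters, and both HIF cores contain CpG. The windows of 3 hypoxia genes are shown because their KO and WT libraries did not overlap. That of Ldha is shown because it has 5 ACGTG matches and nearly equal levels in both genotypes. Each of its 2 E-boxes counts as a match on both strands. Capitals mark every motif match on either strand, so CACGT and CACGC are cores read on the other strand.
Hif1a (chr12:73907617-73907866, plus strand): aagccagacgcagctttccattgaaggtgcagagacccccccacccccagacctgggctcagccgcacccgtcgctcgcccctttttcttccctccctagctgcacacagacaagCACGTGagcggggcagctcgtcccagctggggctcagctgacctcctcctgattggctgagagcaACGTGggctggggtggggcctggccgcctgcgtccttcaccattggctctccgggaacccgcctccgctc
Egln3 (chr12:54203875-54204124, minus strand): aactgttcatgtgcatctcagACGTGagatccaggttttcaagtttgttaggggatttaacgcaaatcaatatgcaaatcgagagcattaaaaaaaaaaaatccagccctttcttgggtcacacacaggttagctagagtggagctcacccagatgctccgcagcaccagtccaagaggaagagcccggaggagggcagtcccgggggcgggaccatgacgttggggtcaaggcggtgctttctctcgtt
Bnip3 (chr7:138909507-138909756, minus strand): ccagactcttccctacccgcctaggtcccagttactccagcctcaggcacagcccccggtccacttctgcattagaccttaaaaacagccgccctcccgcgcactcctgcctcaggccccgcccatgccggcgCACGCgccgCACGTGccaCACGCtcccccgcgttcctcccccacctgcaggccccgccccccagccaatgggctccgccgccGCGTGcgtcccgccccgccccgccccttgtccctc
Ldha (chr7:46845554-46845803, plus strand): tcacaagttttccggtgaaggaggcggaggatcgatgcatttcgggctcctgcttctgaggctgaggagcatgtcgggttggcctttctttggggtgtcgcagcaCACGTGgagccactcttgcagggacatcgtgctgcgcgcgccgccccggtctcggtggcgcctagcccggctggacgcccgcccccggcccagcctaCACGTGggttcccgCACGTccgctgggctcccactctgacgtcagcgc
In Hif1a, an E-box begins 135 bases and a further ACGTG 70 bases before the start. Egln3 has a single ACGTG, which begins 229 bases before the start. Bnip3 has an E-box at 108 bases with GCGTG cores on either side of it. Ldha has E-boxes at 145 and 48 bases. A match is a run of letters and not evidence of binding, and these windows are far shorter than a regulatory region.

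The libraries held between 33784183 and 41231173 counts assigned to genes, and 25697 to 26438 genes had a count. Junb itself was measured at 57.1, 57.3 and 49.6 CPM (counts scaled to library size) in KO replicates 1 to 3, against 87.1, 77.5 and 89.5 CPM in WT replicates 1 to 3. The groups did not overlap, and the KO mean was 0.645 of the WT mean, with a log2 difference of -0.63 ± 0.13 SE. The adjusted p was 0.9999 in edgeR's quasi-likelihood test and 0.00417 in DESeq2, which called Junb. Junb reads therefore remained in every KO library. Every list of markers of other cell types had reads in every library. B cell markers summed to 9609, 13280 and 4921 CPM in KO libraries, against 5007, 15910 and 3104 CPM in WT libraries, and 10 of 12 had a higher KO mean. Myeloid markers summed to 1082, 1413 and 593 CPM in KO libraries, against 409, 1301 and 245 CPM in WT libraries, and 14 of 14 had a higher KO mean. Erythroid and platelet markers, globins included, summed to 7742, 1651 and 79.5 CPM in KO libraries, against 111, 421 and 2804 CPM in WT libraries, with 9 of 10 tested higher in KO. CD8 T and NK cell markers summed to between 138 and 232 CPM in KO libraries and between 94.7 and 199.7 CPM in WT libraries, and 10 of 12 had a higher KO mean. Conventional CD4 T cell markers summed to between 1754 and 2590 CPM in KO libraries and between 1590 and 2091 CPM in WT libraries, and here too 10 of 12 had a higher KO mean. Il7r and Cd40lg of this list were higher in every KO library, so that 16.7% did not overlap, against 7.76% of all genes tested. Of the other marker lists, Clec9a (myeloid) and Gp9 (platelet) were also higher in every KO library, and Gpr83 (Treg) was lower in every KO library. Of the defining markers, Klre1 and Cd14 were at 0 in WT replicate 3, Slc4a1 in WT replicate 1 and the platelet genes Gp9 and Ppbp in several libraries. Treg markers, by contrast, summed to 986, 1689 and 2291 CPM in KO libraries, against 2369, 2078 and 2422 CPM in WT libraries, and 1 of 10 had a higher KO mean. Markers of T cells in general summed to between 4744 and 5438 CPM in KO libraries and between 5217 and 6575 CPM in WT libraries, and 0 of 10 had a higher KO mean. Foxp3 averaged 32.2 ± 6.0 CPM in KO and 36.3 ± 3.4 CPM in WT libraries (SD, n = 3 each). No marker passed the edgeR threshold, and DESeq2 called 1, Gp9 (88, 38 and 24 counts in KO replicates 1 to 3, against 1, 0 and 0 counts in WT replicates 1 to 3, adjusted p 0.00497). The part of these markers' cells in the values of the members was not tested. In sorted but mixed RNA, fewer cells of a type and less RNA per cell cannot be told apart.

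None of the 36 members passed the test of KO against WT. The threshold was an adjusted p of 0.05 in edgeR's quasi-likelihood test, and the smallest adjusted p of a member was 0.9999. Across all 20475 genes tested 0 passed as well (0%), 590 (2.88%) had an unadjusted p under 0.05, and limma-voom with library quality weights also called 0 genes, with 4.49% at an unadjusted p under 0.05. DESeq2 called 63 of 23198 genes with an adjusted p (0.272%), and 0 of them were members. An unadjusted p under 0.05 was found for 2 of 36 members, Hif1a and G6pdx, both with the lower mean in KO. Over all genes 1.48% had such a p with a lower and 1.4% with a higher mean in KO. The KO and WT libraries did not overlap for 5 of 36 members (13.9%), against 7.76% of all genes tested. In 4 of these 5, Hif1a, Egln3, Pfkfb3 and G6pdx, every KO library was lower, and in Bnip3 every KO library was higher. Over all genes 4.07% were lower and 3.68% higher in every KO library. A higher mean in KO was found for 11 members and a lower one for 25, so that 30.6% were higher, against 50.9% of all genes. The sizes were small, with a median log2 difference (KO minus WT) of -0.07 over members and 0.0055 over all genes. The differences ran from -0.86 for Egln3 to 0.50 for Bnip3, and 33 of 36 lay within 0.5 of 0 on the log2 scale. So did 15763 of all 20475 genes tested, and 12521 of the 14302 at or above the lowest member mean CPM. Small sizes were thus not particular to the members.

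**Figure D1:**
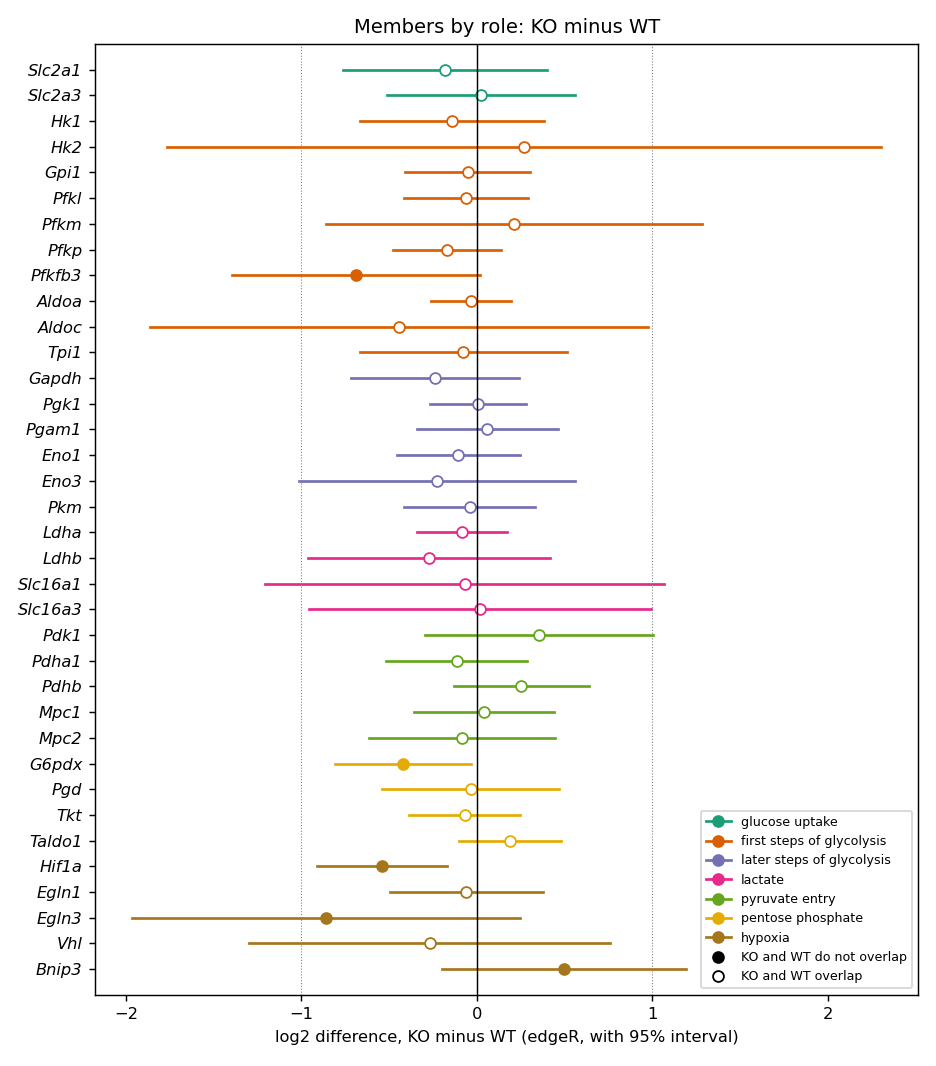
Log2 difference (KO minus WT) of each of the 36 members, by role, with the 95% interval of the edgeR fit as a line; filled points mark members whose KO and WT libraries did not overlap, and dotted lines mark a 2-fold difference. Most points lie just left of 0, and the filled points are Pfkfb3, G6pdx, Hif1a and Egln3 to the left and Bnip3 to the right.

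The precision varied between members. For 26 of 36 (72.2%) the 95% interval of the difference lay within a 2-fold change in either direction, and for 16 within 1.5-fold. The 2-fold share was 44.5% over all genes. It was 63.6% over the 14302 genes tested at or above the lowest member mean CPM. The narrowest belonged to the abundant enzymes, such as Aldoa, whose interval ran from -0.26 to 0.20 on the log2 scale. The widest belonged to Hk2, whose KO level could be anywhere from 0.293 to 4.94 times that of WT. The median coefficient of variation between libraries of a genotype was 19.2% over members and 27.5% over all genes tested. Over the genes at or above the lowest member mean CPM it was 21.2%.

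The level of a transcript per length is its CPM divided by the kilobases of the union of its annotated exons. Aldoa, the aldolase that cleaves fructose bisphosphate, stood highest on this scale at 173 ± 2.6 CPM per kb in KO and 177 ± 10.6 CPM per kb in WT libraries (SD, n = 3 each). Ldha, the lactate dehydrogenase subunit common in activated lymphocytes, followed at 122 ± 8.2 CPM per kb in KO and 129.6 ± 9.4 CPM per kb in WT libraries. Pkm (pyruvate kinase) and Eno1 (enolase) were next and did not differ from each other beyond their spread, with 98.9 ± 15.9 CPM per kb in KO and 102 ± 12.7 CPM per kb in WT for Pkm, and 95.5 ± 12.5 CPM per kb in KO and 103 ± 13.9 CPM per kb in WT for Eno1. The fifth was Taldo1, the transaldolase of the pentose phosphate pathway, at 83.5 ± 6.4 CPM per kb in KO and 73.2 ± 7.0 CPM per kb in WT. The order depends on the length used: per kb of the principal transcript alone, Aldoa still led, but Eno1 (254 in KO and 273 in WT) stood above Ldha (229 in KO and 243 in WT) and Pkm (203 in KO and 209 in WT). At the low end of the exon-union scale stood Hk2, the inducible hexokinase, at 0.60 ± 0.48 CPM per kb in KO and 0.50 ± 0.31 CPM per kb in WT, then Aldoc, Egln3, Slc16a3 and Pfkfb3. The members thus spanned the 15.3 to the 95.8 percentile of level among 20441 genes tested that have a length.

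**Figure D2:**
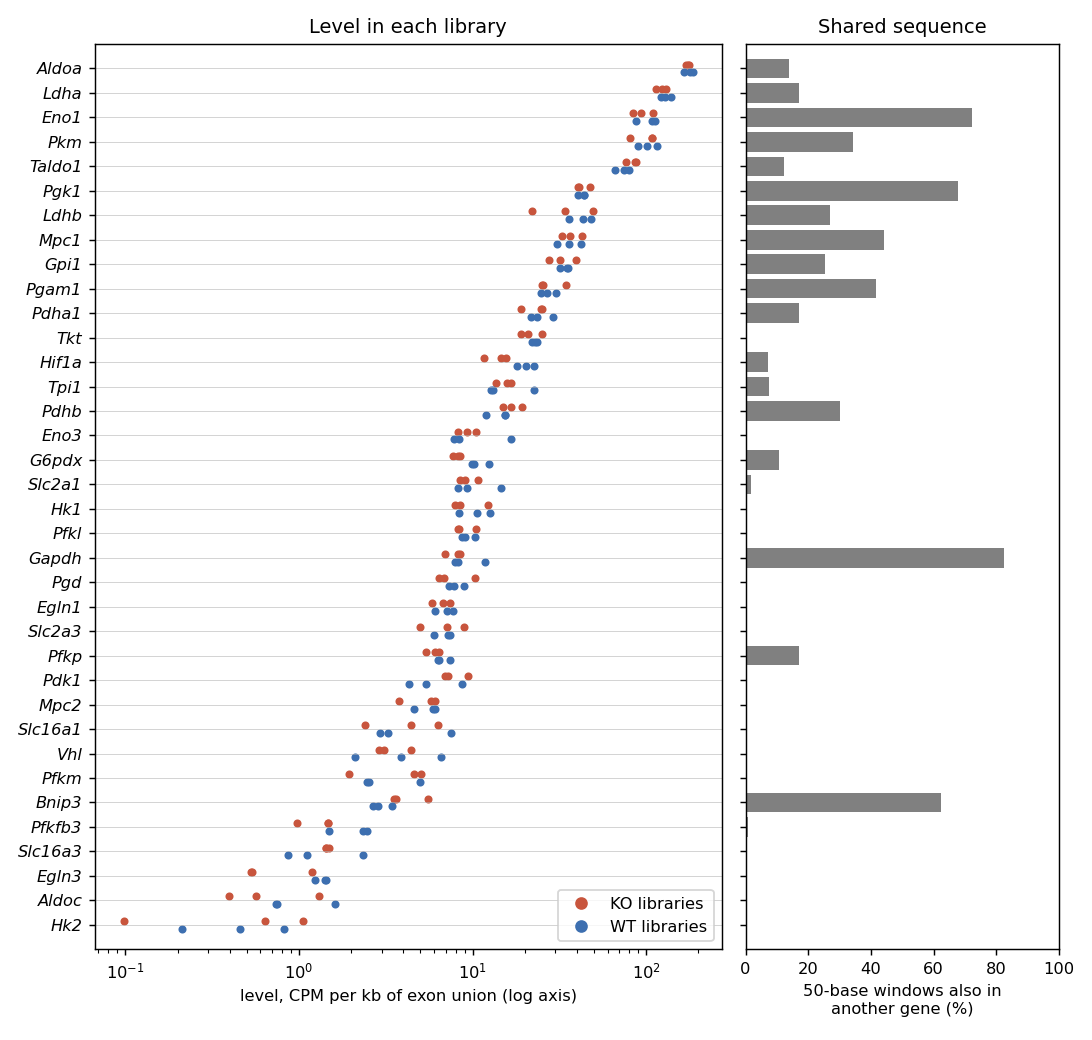
Left, level of each member in each KO and WT library in CPM per kb of annotated exons on a log axis. Members are ordered by the mean of the WT libraries. Right, share of the 50-base windows of the principal transcript that occur in a transcript of another gene. The KO and WT points of most members interleave, and Gapdh sits at mid-level with 82.5% of its windows shared.

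Gapdh, widely used as a reference gene, was not among the abundant members. It had 34.1, 28.6 and 35.0 CPM in KO replicates 1 to 3, against 34.1, 32.9 and 48.5 CPM in WT replicates 1 to 3, or 7.88 CPM per kb in KO and 9.31 CPM per kb in WT libraries. The groups overlapped, and WT replicate 3 was the highest. Reads were 50 bases long, and 82.5% of the 50-base windows of its principal transcript also occurred in a transcript of another annotated gene, while 65.8% occurred in more than 10 genes. Its level is therefore uncertain. The same measure was 72.2% for Eno1, 68.0% for Pgk1, 62.4% for Bnip3, 44.2% for Mpc1, 41.5% for Pgam1, 34.4% for Pkm and 30.3% for Pdhb. Eno1b, the annotated gene that shares most windows with Eno1, had 344.5 ± 21.4 CPM per kb in KO and 338 ± 8.4 CPM per kb in WT libraries, above Eno1 itself on the same scale. Pgk1-rs7, the partner of Pgk1, had 86.4 ± 13.5 CPM in KO and 83.0 ± 7.9 CPM in WT libraries. Levels of these members are uncertain for that reason. Counted over the windows of all transcripts of a gene instead of the principal one, 24 members had under 10% shared windows. Of these, 6 had a higher mean in KO, the median log2 difference was -0.07, and 0 passed the test.

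Glucose uptake did not separate the genotypes. Slc2a1 (GLUT1), the transporter that activated T cells bring to the surface, had 29.8, 31.8 and 37.9 CPM in KO replicates 1 to 3, against 32.8, 51.1 and 29.0 CPM in WT replicates 1 to 3. WT replicate 2 stood above the other 5 libraries, which overlapped (log2 difference -0.18 ± 0.25 SE). Slc2a3 (GLUT3), the high-affinity transporter, had 36.2, 64.4 and 51.4 CPM in KO replicates 1 to 3, against 52.0, 43.5 and 54.0 CPM in WT replicates 1 to 3. Here the KO libraries held both the lowest and the highest value (log2 difference 0.02 ± 0.23 SE).

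Of the 10 genes of the first steps, from glucose to the triose phosphates, 2 had a higher and 8 a lower mean in KO, with a median log2 difference of -0.07. Aldoa was the steadiest member, with 505, 511 and 496 CPM in KO replicates 1 to 3, against 521, 543 and 482 CPM in WT replicates 1 to 3. The KO values all lay inside the WT range. Gpi1, which turns glucose phosphate into fructose phosphate, had 178, 205 and 254 CPM in KO replicates 1 to 3, against 207, 226 and 228 CPM in WT replicates 1 to 3, and the KO libraries spanned the WT ones. The member of this group that stood apart was Pfkfb3 (ENSMUSG00000026773.19, chr2:11471433-11554077, minus strand, GENCODE M21 on GRCm38), whose product makes fructose 2,6-bisphosphate, the activator of phosphofructokinase. It had 7.37, 11.1 and 11.1 CPM in KO replicates 1 to 3, against 17.8, 18.7 and 11.3 CPM in WT replicates 1 to 3. WT replicate 3 was only just above the KO libraries, and KO replicate 1 was the lowest. The log2 difference was -0.69 ± 0.30 SE with an unadjusted p of 0.0541 and an adjusted p of 0.9999 in edgeR's quasi-likelihood test. Without WT replicate 3 it was -0.89 and without KO replicate 1 it was -0.52. Hk1, Pfkl, Pfkm, Pfkp, Aldoc, Hk2 and Tpi1 overlapped between the genotypes, with log2 differences from -0.45 for Aldoc to 0.27 for Hk2. Hk2 varied most, at 0.583, 6.31 and 3.83 CPM in KO replicates 1 to 3, against 1.27, 4.91 and 2.73 CPM in WT replicates 1 to 3.

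In the later steps, from glyceraldehyde phosphate to pyruvate, 2 of 6 genes had a higher and 4 a lower mean in KO, and the median log2 difference was -0.07. Pkm had 403, 538 and 543 CPM in KO replicates 1 to 3, against 505, 575 and 448 CPM in WT replicates 1 to 3. Eno1 had 452, 585.5 and 505 CPM in KO replicates 1 to 3, against 584, 607 and 468 CPM in WT replicates 1 to 3. In both genes KO replicate 1 was the lowest and WT replicate 2 the highest library, and the groups overlapped. Pgk1, Pgam1, Eno3 and Gapdh had log2 differences between -0.24 and 0.06, and their libraries overlapped too.

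Lactate production and export also overlapped between the genotypes. Ldha had 409, 375 and 429 CPM in KO replicates 1 to 3, against 424, 401 and 462 CPM in WT replicates 1 to 3. Its log2 difference was -0.09 ± 0.11 SE, and its 95% interval ran from -0.34 to 0.17. Ldhb, the subunit that favours the return of lactate to pyruvate, had 34.6, 53.5 and 78.0 CPM in KO replicates 1 to 3, against 68.4, 56.6 and 75.5 CPM in WT replicates 1 to 3, and KO replicate 1 was the low library. Slc16a1 and Slc16a3, the monocarboxylate transporters MCT1 and MCT4 that carry lactate, had log2 differences of -0.07 ± 0.48 and 0.02 ± 0.41 SE, with 95% intervals from 0.433 to 2.09 and from 0.515 to 1.99 times the WT level.

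Pyruvate entry into mitochondria was the only role list in which more members had a higher than a lower mean in KO, 3 of 5, with a median log2 difference of 0.04. Mpc1, a subunit of the mitochondrial pyruvate carrier, had 67.8, 75.4 and 89.3 CPM in KO replicates 1 to 3, against 63.8, 74.8 and 87.2 CPM in WT replicates 1 to 3. Pdha1, a subunit of the pyruvate dehydrogenase that makes acetyl-CoA, had 70.6, 92.4 and 93.2 CPM in KO replicates 1 to 3, against 108, 88.2 and 80.9 CPM in WT replicates 1 to 3. Both overlapped. The largest difference of the list belonged to Pdk1, the kinase that shuts pyruvate dehydrogenase off and is itself a HIF-1 target, at 0.35 ± 0.27 SE (log2), and its libraries overlapped.

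Of the 4 pentose phosphate genes, 1 had a higher and 3 a lower mean in KO. G6pdx (ENSMUSG00000031400.10, chrX:74409483-74429194, minus strand), glucose 6-phosphate dehydrogenase and the entry point that makes NADPH, had 23.7, 26.1 and 25.5 CPM in KO replicates 1 to 3, against 31.6, 30.8 and 38.4 CPM in WT replicates 1 to 3. Every KO library was below every WT library, and the KO libraries lay close together (25.1 ± 1.3 CPM in KO, 33.6 ± 4.2 CPM in WT, SD, n = 3 each). The log2 difference was -0.42 ± 0.16 SE with an unadjusted p of 0.0372 and an adjusted p of 0.9999 (edgeR). DESeq2 gave an adjusted p of 0.613. G6pdx shares 418 exon bases with Ikbkg on the other strand, and whether counting used strand is not given. The 3 enzymes downstream did not follow the same pattern. Tkt (transketolase) had 153, 186 and 139.6 CPM in KO replicates 1 to 3, against 163, 172 and 167 CPM in WT replicates 1 to 3. Taldo1 had 191, 188 and 165 CPM in KO replicates 1 to 3, against 143, 173 and 161 CPM in WT replicates 1 to 3. The Tkt values of KO lay on both sides of the WT values, and 2 of 3 KO values of Taldo1 were above all WT values, with log2 differences of -0.07 ± 0.13 and 0.19 ± 0.12 SE. Pgd, the second NADPH-producing enzyme of the pathway, had a log2 difference of -0.04 ± 0.21 SE.

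The oxygen-sensing genes held 3 of the 5 members whose libraries did not overlap, and they did not all lie in the same direction. Hif1a (ENSMUSG00000021109.13, chr12:73901375-73947530, plus strand) had 68.3, 92.2 and 86.5 CPM in KO replicates 1 to 3, against 133, 119.9 and 107 CPM in WT replicates 1 to 3. Every KO library was lower than every WT library. The log2 difference was -0.54 ± 0.16 SE, a KO level 0.687 times that of WT, with a 95% interval from -0.91 to -0.17, an unadjusted p of 0.0105 and an adjusted p of 0.9999 (edgeR). DESeq2 gave an adjusted p of 0.318. KO replicate 1, the lowest for Hif1a, was also the library with the fewest Treg marker reads and the most erythroid ones. Without it the log2 difference was -0.43, and its part in the result beyond that was not tested. Hif1a overlaps Gm15283 on the other strand and Gm49321 on the same strand, which adds to the uncertainty of its count.

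Egln3 (ENSMUSG00000035105.5, chr12:54178981-54203860, minus strand), a hydroxylase that HIF-1 itself induces, had 1.40, 1.43 and 3.15 CPM in KO replicates 1 to 3, against 3.79, 3.30 and 3.77 CPM in WT replicates 1 to 3. In reads this was 53, 50 and 117 counts in KO libraries and 131, 113 and 152 counts in WT libraries. KO replicate 3 came close to the WT libraries, and the other KO libraries were clearly lower. The log2 difference was -0.86 ± 0.47 SE (unadjusted p 0.109, adjusted p 0.9999, edgeR), and without KO replicate 3 it was -1.35. Bnip3 (ENSMUSG00000078566.8, chr7:138890836-138909519, minus strand), a mitophagy receptor and HIF-1 target, had 7.98, 12.5 and 8.22 CPM in KO replicates 1 to 3, against 6.45, 7.83 and 6.05 CPM in WT replicates 1 to 3. The lowest KO and the highest WT library almost met. The log2 difference was 0.50 ± 0.30 SE (unadjusted p 0.136, adjusted p 0.9999, edgeR), and without KO replicate 2 it was 0.26. AC160336.1, which shares 33.9% of the windows of all Bnip3 transcripts, had 11.5, 12.3 and 10.3 CPM in KO replicates 1 to 3, against 6.56, 9.70 and 5.95 CPM in WT replicates 1 to 3, and did not overlap either. The remaining 2 genes of the pathway overlapped. Egln1, the main oxygen sensor, had 24.3, 21.1 and 26.8 CPM in KO replicates 1 to 3, against 25.7, 21.9 and 27.7 CPM in WT replicates 1 to 3, and Vhl had a log2 difference of -0.27 ± 0.43 SE.

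**Figure D3:**
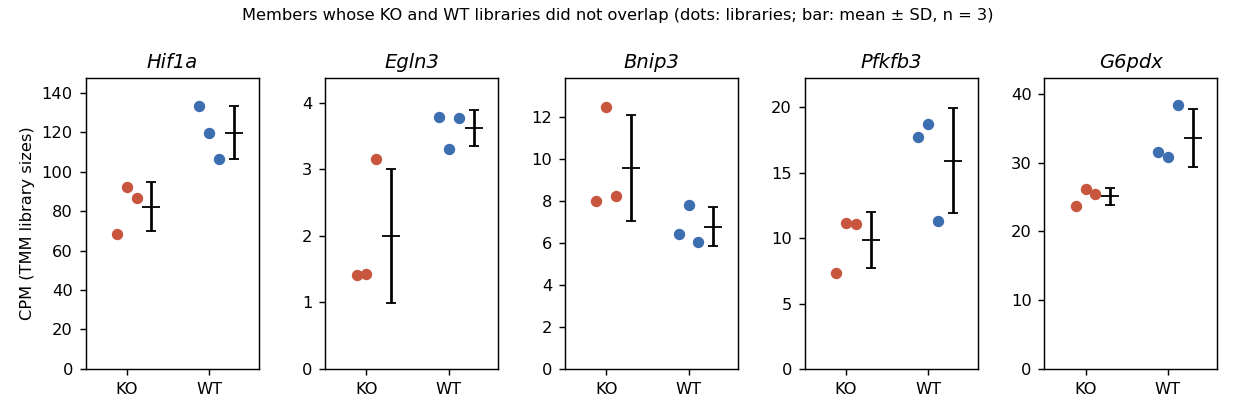
CPM of the 5 members whose KO and WT libraries did not overlap, 1 point per library, with the mean and SD of 3 libraries beside the points. KO lies below WT in Hif1a, Egln3, Pfkfb3 and G6pdx and above it in Bnip3, and in Pfkfb3 and Bnip3 the nearest KO and WT points almost meet.

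The names of the deposited tables share a number that divides the libraries into KO replicate 2 with WT replicates 1 and 2, and KO replicates 1 and 3 with WT replicate 3. What it marks is not stated. Within the first set the log2 difference of Hif1a was -0.46 and within the second -0.47. Those of G6pdx were -0.26 and -0.64, those of Pfkfb3 -0.71 and -0.33, and those of Egln3 -1.30 and -0.84. For Bnip3 they were 0.81 and 0.42. Each set has 1 library of 1 genotype. Since these members were picked for libraries that did not overlap, the direction was the same in both sets by construction. The same choice favours large differences, so the sizes are given as a description only.

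Other genes of the oxygen response did not lean to one side. In addition to the members, 32 genes of the hypoxia response were tested, among them the other HIF subunits, Egln2, Hif1an and targets such as Car9, Ddit4, Ndrg1 and Bnip3l. Of these 17 had a higher and 15 a lower mean in KO, the median log2 difference was 0.05, and 0 passed the test. Bnip3l, a mitophagy receptor related to Bnip3, had 146, 148 and 137 CPM in KO replicates 1 to 3, against 143, 133 and 146 CPM in WT replicates 1 to 3. Angptl4, a secreted inhibitor of lipoprotein lipase, had 3.68, 6.00 and 4.31 CPM in KO replicates 1 to 3, against 2.57, 1.20 and 1.66 CPM in WT replicates 1 to 3. Every KO library was above every WT library (log2 difference 1.36 ± 0.45 SE, unadjusted p 0.0183, adjusted p 0.9999, edgeR).

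The other pathway genes divided in a like way. Of 22 further glycolysis genes tested 10 had a higher and 12 a lower mean in KO, of 10 pyruvate entry genes 6 and 4, of 9 pentose phosphate genes 5 and 4, and of 18 regulators of glycolysis 9 and 9. Over all 91 further genes tested 0 passed, 47 were higher and 44 lower, and 7 (7.69%) did not overlap, near the 7.76% of all genes. An unadjusted p under 0.05 (edgeR) was found for 4 of the 91, against 2.88% of all genes tested. Galm, which interconverts the anomers of sugars, had 17.8, 19.3 and 21.5 CPM in KO replicates 1 to 3, against 26.5, 27.0 and 34.8 CPM in WT replicates 1 to 3 (log2 difference -0.59 ± 0.19 SE, unadjusted p 0.0171, adjusted p 0.9999, edgeR). Pgm2, a phosphopentomutase, had 15.5, 11.5 and 12.1 CPM in KO replicates 1 to 3, against 17.7, 25.2 and 21.9 CPM in WT replicates 1 to 3 (log2 difference -0.73 ± 0.23 SE, unadjusted p 0.0165, adjusted p 0.9999, edgeR). Both were lower in every KO library. Rictor, the defining subunit of mTOR complex 2, had 52.5, 50.9 and 41.7 CPM in KO replicates 1 to 3, against 38.5, 39.3 and 26.2 CPM in WT replicates 1 to 3, higher in every KO library (log2 difference 0.48 ± 0.20 SE, unadjusted p 0.0493, adjusted p 0.9999, edgeR). Angptl4, given above, was the fourth. A further 18 genes of these lists, Ldhc, Pdk4 and Vegfa among them, were too low to be tested.

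Where several genes encode the same step, the share of a paralog within its family was computed per library from the levels per length, which needs no scaling between libraries. In none of the 7 families did the KO and WT libraries separate, and all adjusted p were 1 in exact two-sided permutation tests over 6 libraries, which can give no p below 0.1. Ldha made up 78.0 ± 6.4% of the lactate dehydrogenase level in KO and 75.4 ± 1.5% in WT libraries (SD, n = 3 each). Slc2a1 made up 57.9 ± 6.6% of the 2 glucose transporters in KO and 60.0 ± 9.6% in WT. Pfkp, the platelet-type phosphofructokinase, made up 31.6 ± 1.3% of its family in KO and 34.5 ± 2.5% in WT, the nearest to a separation (exact p = 0.2). Hk2 made up 5.39 ± 3.6% of the hexokinases Hk1 and Hk2 in KO and 4.66 ± 2.8% in WT. Aldoc and Eno3 were minor forms, at 0.439% and 8.95% in KO and 0.593% and 9.42% in WT. The enolase share counts only Eno1 and Eno3. It leaves out Eno1b, which had 344.5 CPM per kb in KO and 338 CPM per kb in WT libraries. With Eno1b counted, the Eno3 share would be lower. The shares depend on the length used for each gene. Per kb of the principal transcript, Hk2 stood at 2.73% in KO and 2.35% in WT, Eno3 at 3.96% in KO and 4.19% in WT, Aldoc at 0.267% in KO and 0.361% in WT, and Pfkp at 48.3% in KO and 51.1% in WT. Slc16a3 took 27.2 ± 10.1% of the pair of monocarboxylate transporters in KO and 26.7 ± 17.1% in WT.

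**Figure D4:**
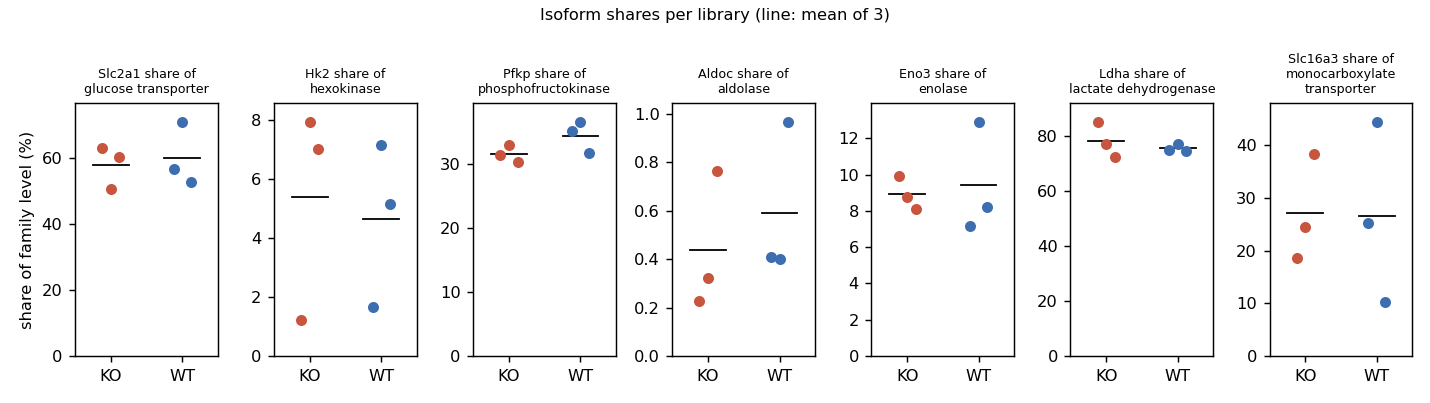
Share of 1 named paralog in the summed level per length of its family, in percent, for 7 families, 1 point per library and a line at the mean of 3. KO and WT points overlap in every family, and the Slc16a3 shares spread most within a genotype in percentage points.

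The members did not move as a block within a genotype. Summed over all 36, their counts were 3386, 3865 and 3736 CPM in KO replicates 1 to 3, against 3795, 3968 and 3722 CPM in WT replicates 1 to 3. KO replicate 1 was the lowest of the 6 and held the lowest value of 14 members, and WT replicate 2 held the highest value of 9. Relative to the mean of each gene over the 6 libraries, the median member stood at -0.14 (log2) in KO replicate 1 and between -0.01 and 0.08 in the other 5 libraries. Without KO replicate 1 the number of members with a higher mean in KO was 14, and the median log2 difference was -0.03. Without WT replicate 2 these were 16 and -0.03.

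**Figure D5:**
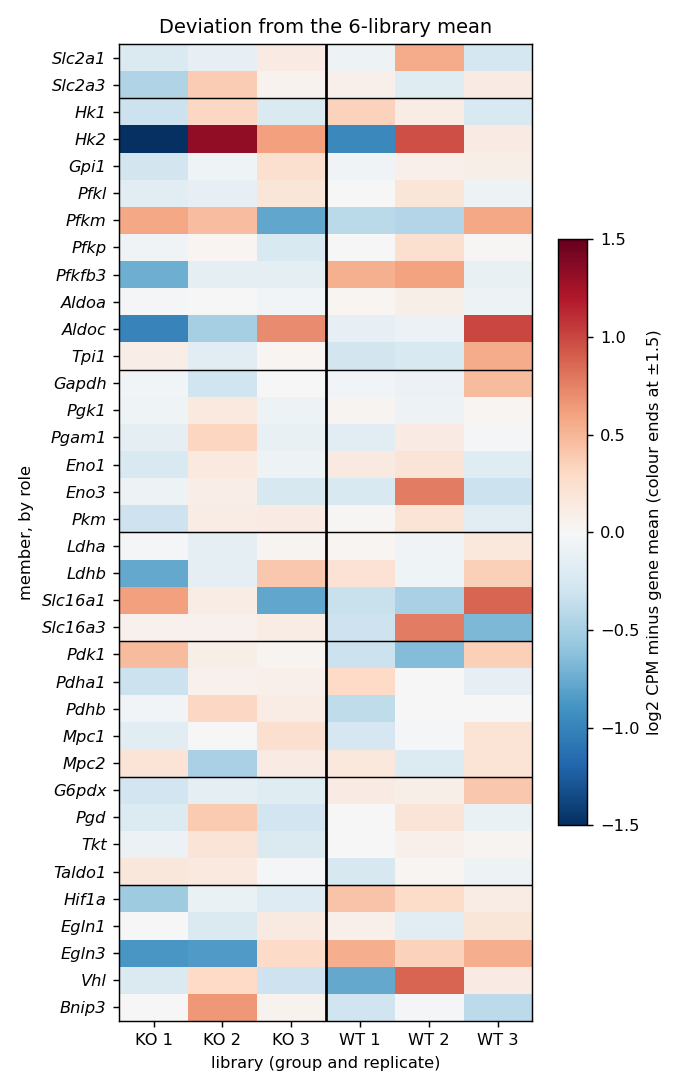
Log2 CPM of each member in each library, minus the mean of that gene over 6 libraries, with KO libraries left of the thick line and members grouped by role; the colour scale ends at 1.5 in both directions. KO replicate 1 is the bluest column, and the rows of Hk2, Aldoc, Slc16a1 and Pfkm vary within both genotypes.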

How the data were processed

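RNA of sorted mouse Tregs, 3 KO and 3 WT libraries, was prepared with SMARTer Ultra Low Input and NEBNext ChIP-Seq kits and read as single 50-base reads, 6 libraries per lane, per the labels' protocols. The authors deposited raw read counts per gene, made with bcl2fastq 2.19.0.316, STAR 2.3 and featureCounts on mm10, per the submitters' processing notes. Not given in the sources used here: annotation release, use of strand and treatment of reads with several places. No molecular identifiers are named, so PCR copies are counted as reads.

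Symbols were taken from GENCODE M21 (53274 of 53379 identifiers matched). Of 227 list entries 226 matched. Aldoa has 2 identifiers, and ENSMUSG00000030695.16 was used. The fit was edgeR 4.0.16 (R 4.3.3) with filterByExpr, TMM, a robust quasi-likelihood F test, two-sided, on genotype alone, with Benjamini-Hochberg adjustment over 20475 genes and a threshold of 0.05. CPM use TMM library sizes. Log2 differences are KO minus WT. The common dispersion was 0.26, which as a coefficient of variation is 51%. The median over genes of the variation within genotypes was 27.5%. All pairs of libraries differed beyond sampling noise (chi-square over its degrees of freedom 35.8 to 129), so none was a copy. Alternatives used DESeq2 1.42.0 and limma 3.58.1. Paralog shares used exact permutation tests. Promoters came from RefSeq on GRCm38.p6. Named were the 2 most abundant members of each role, members with an unadjusted p under 0.05 or without overlap between genotypes, and further genes with an unadjusted p under 0.05. The members and lists were chosen with earlier results of these data known.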

Additional observations from a re-analysis of the deposited data

How the results depend on the processing

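None of the 36 members passed the threshold under any alternative run: DESeq2 size factors (RLE) in edgeR, no filter or a filter of 1 CPM in 3 libraries, a replicate block, a term for the number in the table names, DESeq2, limma-voom with quality weights, 24 members with few shared windows, or 1 library left out. Over all genes DESeq2 called 63, against 0 in edgeR. The cause was not tested. Among the 24 members with under 10% shared windows, 6 (25%) had a higher mean in KO, against 11 of all 36 (30.6%). The number of members with a higher mean in KO was 9 to 16 and the median log2 difference -0.13 to -0.03 when 1 library was left out. Deviations from the genotype means correlated at -0.084, 0.166 and 0.027 between KO and WT libraries with the same replicate number. Between those with different numbers they correlated at -0.152 to 0.115. With so few libraries, these values cannot decide whether the replicate numbers mark pairs. With the replicate block 0 genes were called, 9 members had a higher mean in KO and the median log2 difference was -0.07.

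Of 468 member values under alternatives 47 had the other sign, and 12 members kept their sign throughout. The cause of the turned signs was not tested. Hif1a, G6pdx, Pfkfb3, Egln3 and Bnip3 are among the 12. They were picked for libraries that did not overlap, so leaving out 1 library could hardly turn their sign. The sign turned for Slc2a3 (-0.009) and Hk2 (-0.058) under the replicate block, for Hk1 (0.023), Eno1 (0.0035), Pkm (0.037), Mpc1 (-0.015) and Pgd (0.074) with the table-name term, and for Tpi1 (0.084), Pgk1 (-0.0036), Slc16a1 (0.053) and Vhl (0.12) in limma-voom. With 1 library left out the log2 differences of 23 members included both signs: Aldoa -0.083 to 0.0073, Aldoc -1.1 to 0.025, Egln1 -0.15 to 0.027, Eno3 -0.43 to 0.21, Gpi1 -0.21 to 0.055, Hk1 -0.36 to 0.004, Hk2 -0.43 to 0.83, Mpc1 -0.076 to 0.15, Mpc2 -0.22 to 0.0996, Pdha1 -0.21 to 0.014, Pfkl -0.18 to 0.016, Pfkm -0.025 to 0.62, Pgam1 -0.103 to 0.14, Pgd -0.28 to 0.086, Pgk1 -0.067 to 0.041, Pkm -0.13 to 0.082, Slc16a1 -0.43 to 0.49, Slc16a3 -0.26 to 0.56, Slc2a1 -0.35 to 0.102, Slc2a3 -0.19 to 0.21, Tkt -0.19 to 0.015, Tpi1 -0.22 to 0.24 and Vhl -0.59 to 0.21. For 6 families the difference in paralog share, KO minus WT in percentage points, did so too: aldolase -0.317 to 0.0333, enolase -1.61 to 1.26, glucose transporter -5.76 to 3.36, hexokinase -0.767 to 2.81, lactate dehydrogenase -0.793 to 5.49 and monocarboxylate transporter -7.7 to 9.38. All paralog shares kept their sign with counts not divided by length, under the replicate block and with the length of the principal transcript, which was chosen after seeing the data. The members with the fewest reads rest on small counts: Egln3 had 50 to 152, Aldoc 49 to 213 and Hk2 22 to 221 counts in a library. Their variation within genotypes was 26.2%, 55.2% and 73.6%.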

Other observations

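Of the 36 members, 3 (8.33%) had their highest counts in the 3 libraries with the most erythroid and platelet marker counts, which are KO replicates 1 and 2 and WT replicate 3, against 5.15% of all genes tested. So few members show nothing particular to the list, and their values are given as a description. These were Pfkm, the muscle-type phosphofructokinase, Slc16a1, the lactate transporter MCT1, and Pdk1. They were chosen after their values were seen, and no test was made. Pfkm had 16.8, 15.4 and 6.52 CPM in KO replicates 1 to 3, against 8.47, 8.29 and 16.7 CPM in WT replicates 1 to 3. Slc16a1 had 27.8, 19.6 and 10.6 CPM in KO replicates 1 to 3, against 14.5, 13.0 and 33.4 CPM in WT replicates 1 to 3. Pdk1 had 73.1, 56.1 and 54.3 CPM in KO replicates 1 to 3, against 42.2, 33.7 and 67.6 CPM in WT replicates 1 to 3. In each gene the libraries of a genotype thus differed more among themselves than the means of the genotypes did.

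Among the regulators of glycolysis, MYC, which drives glycolysis genes in activated T cells, had transcript counts of 97.7, 94.4 and 93.7 CPM in KO replicates 1 to 3, against 80.1, 85.7 and 69.7 CPM in WT replicates 1 to 3. Every KO library was above every WT library (Myc log2 difference 0.28 ± 0.12 SE, unadjusted p 0.056, adjusted p 0.9999, edgeR). Of the defining subunits of the mTOR complexes, Rptor (complex 1) had 17.9, 22.8 and 28.4 CPM in KO replicates 1 to 3, against 28.9, 30.6 and 34.5 CPM in WT replicates 1 to 3. It was lower in every KO library, while Rictor (complex 2) was higher in every KO library, and neither passed the test. Mlx, a partner of the glucose-responsive factors MLXIP and MLXIPL, had 37.3, 36.6 and 43.0 CPM in KO replicates 1 to 3, against 35.8, 31.3 and 28.5 CPM in WT replicates 1 to 3, also higher in every KO library and also not past the test. Mtor itself averaged 21.4 CPM in KO and 21.1 CPM in WT libraries. Myc, Rptor, Rictor and Mlx are the 4 regulators whose libraries did not overlap, of 18 tested (22.2%), against 7.76% of all genes tested. They were singled out after their values were seen.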
